A study of Mus musculus with 100 samples.

Results

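The 9 genes described here are bone morphogenetic protein (BMP) ligands and their relatives together with secreted proteins that bind BMPs: Bmp2, Bmp3, Bmp4, Bmp6, Bmp7, Gdf10, Inhbb, Grem1 and Bmper. They form a set list, drawn up with earlier knockout against wild type results of these samples in view, and were found by matching Ensembl transcripts to gene symbols. They are 9 of 32484 genes with a transcript chosen here. Because the knockout against wild type comparison helped to choose them, its values for these 9 genes are given as a description, and counts of members past a threshold are printed beside the share of all genes with nothing read from them. Tests are read for 91 other genes, of which 89 were in the tables. They are genes of the BMP and TGF-beta pathways together with 5 regulators of fat commitment (Zfp423, Zfp521, Ebf1, Ebf2 and Ccn5). All are counted as pathway genes below. That list was drawn up by known roles, but also with earlier results of these data known.

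BMPs are secreted dimers of the TGF-beta superfamily. They bind type I and type II receptor kinases, which phosphorylate SMAD1, SMAD5 and SMAD9, and these enter the nucleus and induce genes such as Id1, Id2, Id3 and Smad6. Secreted antagonists such as gremlins, noggin and chordin-like proteins bind the ligands and keep them from their receptors. In fat, BMP4 and BMP2 are known for committing precursor cells to the white adipocyte lineage and BMP7 for brown fat formation.

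RNA of mouse fat was sequenced from stranded mRNA libraries in a study of GPS2, which is part of a nuclear corepressor complex with NCoR and SMRT, across normal feeding, fat-rich feeding and beta-adrenergic stimulation. All samples carry the strain label Adipoq-Cre-Gps2flox/flox, that is, floxed Gps2 alleles and a Cre driven by the adipocyte gene Adipoq, so recombination is directed to adipocytes and the other cells of the tissue keep Gps2. The genotype stands only in the sample titles. Of the 5 tables, CD holds intra-abdominal fat of chow-fed mice aged 19 weeks (3 wild type, 3 knockout). HFD holds the same depot from mice aged 11 weeks given a high fat diet (4 and 4), with 4 weeks of diet per the table's own name. Epi holds intra-abdominal fat at 19 weeks (3 and 3) and Adipo adipocytes of the same depot and age (3 and 2), both with 12 weeks of diet per their names. BA holds inguinal fat from the beta-adrenergic stimulation experiment in mice aged 8 weeks (4 and 4). Sex is not among the labels used here. Nothing in the labels says that samples came from separate animals, so errors and p-values cover no more than the spread among the samples at hand. In whole tissue, fewer cells of a type and less RNA per cell cannot be told apart.

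The 33 samples held between 29442465 and 63456477 reads each, and 99 libraries were used. Values are normalised reads, that is, read counts of the chosen transcript divided by the size factor of the library, and the tables were scaled separately, so a level is compared between tables only in words. In normalised reads the full-length Gps2 transcript overlapped between the groups in all 5 tables (log2 fold changes from 0.01 to 0.15). In TPM, the reads of each chosen transcript over its length scaled to the same sum in every sample, it was lower in all CD knockouts (56.6, 59.0 and 61.6) than in all CD wild type samples (76.3, 67.7 and 79.1), overlapped in HFD, Epi and BA, and was higher in both knockouts of Adipo. In CD these measures were scaled differently between the groups. Id3 was higher in the knockouts in normalised reads per kilobase (means 1917 against 1615) but lower in TPM (230 against 250). Id1 likewise had 1113 against 1030 per kilobase and 135 against 161 in TPM. The lower TPM of Gps2 in CD is therefore not read as a loss of its RNA. The sources used here do not give which exons are floxed, and knockout and wild type are therefore labels throughout. Several libraries stood apart. In CD, wild type 2 and knockouts 1 and 2 carried epithelial markers (mean log2 levels 9.25, 10.1 and 10.2, against 4.07 or less in the other 3). Their epididymis marker means were also higher (4.23, 7.57 and 7.25, against 1.845 or less). Of the 6 epididymis markers, 1 held 50 or more normalised reads in wild type 2, and 3 did in each of these knockouts. Knockouts 1 and 2 of CD differed from each other far less than other pairs of that table (chi-square per degree of freedom 2.41 to 2.91, against 50.3 to 319). They differed more than libraries of the same sample (1.03 to 1.15) and were kept as 2 samples. This does not show that they came from separate animals. With both counted as 1 sample, the log2 fold change of Bmp3 in CD was -2.96, against -2.58. In Epi, knockouts 2 and 3 carried epididymis markers (12.2 and 10.5, against 3.24 or less), and knockout 2 also epithelial markers (10.4, against 5.81 in knockout 3 and 4.77 or less in the others). Wild type 1 of HFD was highest in epithelial markers (6.53, against 4.13 or less). Wild type 2 and knockout 3 of BA were high in skeletal muscle markers (8.09 and 8.04, against 4.52 or less), and wild type 3 of Adipo in macrophage markers (10.9, against 7.32 and 7.69 in the other wild type samples). The adipocyte markers, Adipoq among them, were high in every sample (means from 13.7 to 17.4) and lowest in wild type 2 of CD. In the adipocyte table the endothelial markers were at 7.46 to 8.54 in wild type and 10.4 and 11.4 in knockout, and none of the 6 was at 0.

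Per length, Inhbb and Bmp3 were the highest of the 9 genes in wild type adipocytes and in wild type whole fat of Epi, while Gdf10, Bmp6 and Bmp4 lay above Bmp2 in whole fat and below it in the adipocytes. Levels between genes are given in TPM. In whole fat of Epi, Inhbb, which encodes the beta B subunit of activin B, was highest at 28.1 ± 3.22 (SD, n = 3). It was followed by Bmp3 at 22.5 ± 6.07, Bmper at 19.6 ± 5.02, Gdf10 at 18.0 ± 5.64 and Bmp6 at 13.2 ± 3.10, and each of these overlapped its neighbour in the order. Bmp4 (8.11 ± 1.16), Bmp2 (3.21 ± 0.38) and Bmp7 (0.96 ± 0.09) each stood apart from the gene above it. Grem1 was last at 0.51 ± 0.82 and overlapped Bmp7. In the adipocytes, Inhbb (21.8 ± 3.69) and Bmp3 (21.6 ± 5.64) led and overlapped each other, then came Bmper at 9.17 ± 3.91, and the other 6 lay at 1.23 or less. Bmp6 stood there at 0.58 ± 0.09, Bmp4 at 0.52 ± 0.30 and Gdf10 at 0.46 ± 0.28, and these 3 overlapped. Whole fat and adipocytes were scaled separately and the difference was not tested. Beside these values, endothelial markers of wild type samples were at 12.4 to 12.6 in Epi and 7.46 to 8.54 in Adipo, and progenitor and stromal markers at 12.0 to 12.5 and 7.51 to 8.89.

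**Figure D1:**
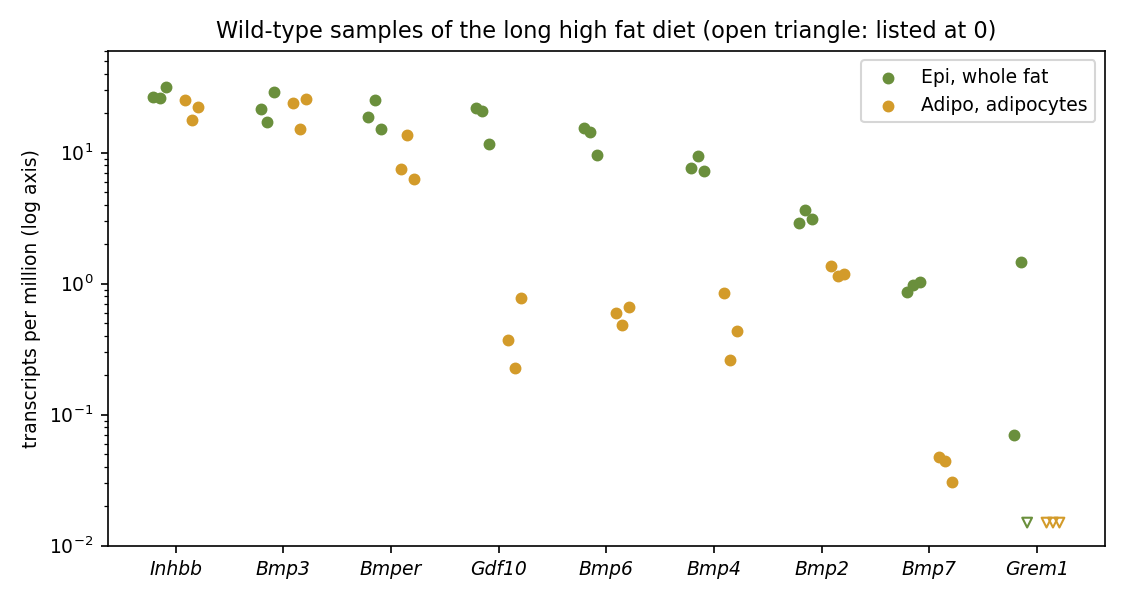
TPM (log axis) of the 9 genes in wild type samples of whole fat (Epi, 3 samples) and of adipocytes (Adipo, 3 samples), 1 point a sample, with open triangles for samples in which a gene was listed at 0. Inhbb and Bmp3 lie at similar heights in both, while Gdf10, Bmp6 and Bmp4 lie at 18.0, 13.2 and 8.11 in whole fat and at 0.46, 0.58 and 0.52 in adipocytes.

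In the other whole fat tables the order was looser. In CD all neighbours overlapped, with Bmp3 highest on average (28.1 ± 36.7, n = 3) because wild type 2 alone reached 69.9. In HFD, Inhbb led at 24.6 ± 3.21 (n = 4), the 5 genes below it overlapped down to Bmp4 at 10.5 ± 2.80, and Bmp2 stood apart at 3.29 ± 1.63. In the inguinal fat of BA, Bmp6 led at 8.71 ± 1.38 (n = 4) and stood apart from Gdf10 at 5.33 ± 1.60. Bmp3 was sixth there at 1.04 ± 0.58, on the 7.5th percentile of all genes tested, against the 68.6th percentile in Epi and the 67.5th in Adipo. Grem1 was listed at 0 in all 8 samples of BA.

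Bmp3 (ENSMUSG00000029335, chr5:98854415-98884396, plus strand, GRCm38) encodes a member that lacks the usual BMP activity and is known to oppose other BMPs through activin receptors. It was lower on average in the knockouts of all 5 tables. In Epi the wild type samples held 3038, 2500 and 3934 normalised reads and the knockouts 717, 1040 and 827. The groups lay far apart, and the log2 fold change was -1.86 ± 0.21 (SE). In Adipo the wild type samples held 3025, 1930 and 3125 and the knockouts 721 and 1478, again without overlap (-1.35 ± 0.36). In HFD the wild type samples held 448, 612, 612 and 743 and the knockouts 342, 336, 290 and 298, without overlap (-0.91 ± 0.15). In CD the wild type samples held 538, 2614 and 69.2 and the knockouts 141, 119 and 26.1. These groups overlapped, and the fold change of -2.58 ± 1.38 rested in part on wild type 2, without which it was -1.33. Wild type 2 also had the highest mural and smooth muscle markers of the table (mean 13.1, against 10.4 to 11.1 in the other 5), and the part of this in its Bmp3 level was not tested. In BA the levels were low, from 26.0 to 79.0 in wild type and from 25.4 to 40.1 in knockout, and overlapped (-0.43 ± 0.31).

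The 3 listed protein-coding transcripts of Bmp3 (6609, 6548 and 2739 bases) share most of their reads and gave the same picture. The shortest had a mean of 1523 ± 336 in wild type and 464 ± 100 in knockout of Epi (SD, n = 3 each). Over 17 alternatives of processing the fold change in Epi lay between -2.11 and -1.69. Without knockouts 2 and 3 of Epi, which carried epididymis markers, it was -2.11.

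**Figure D2:**
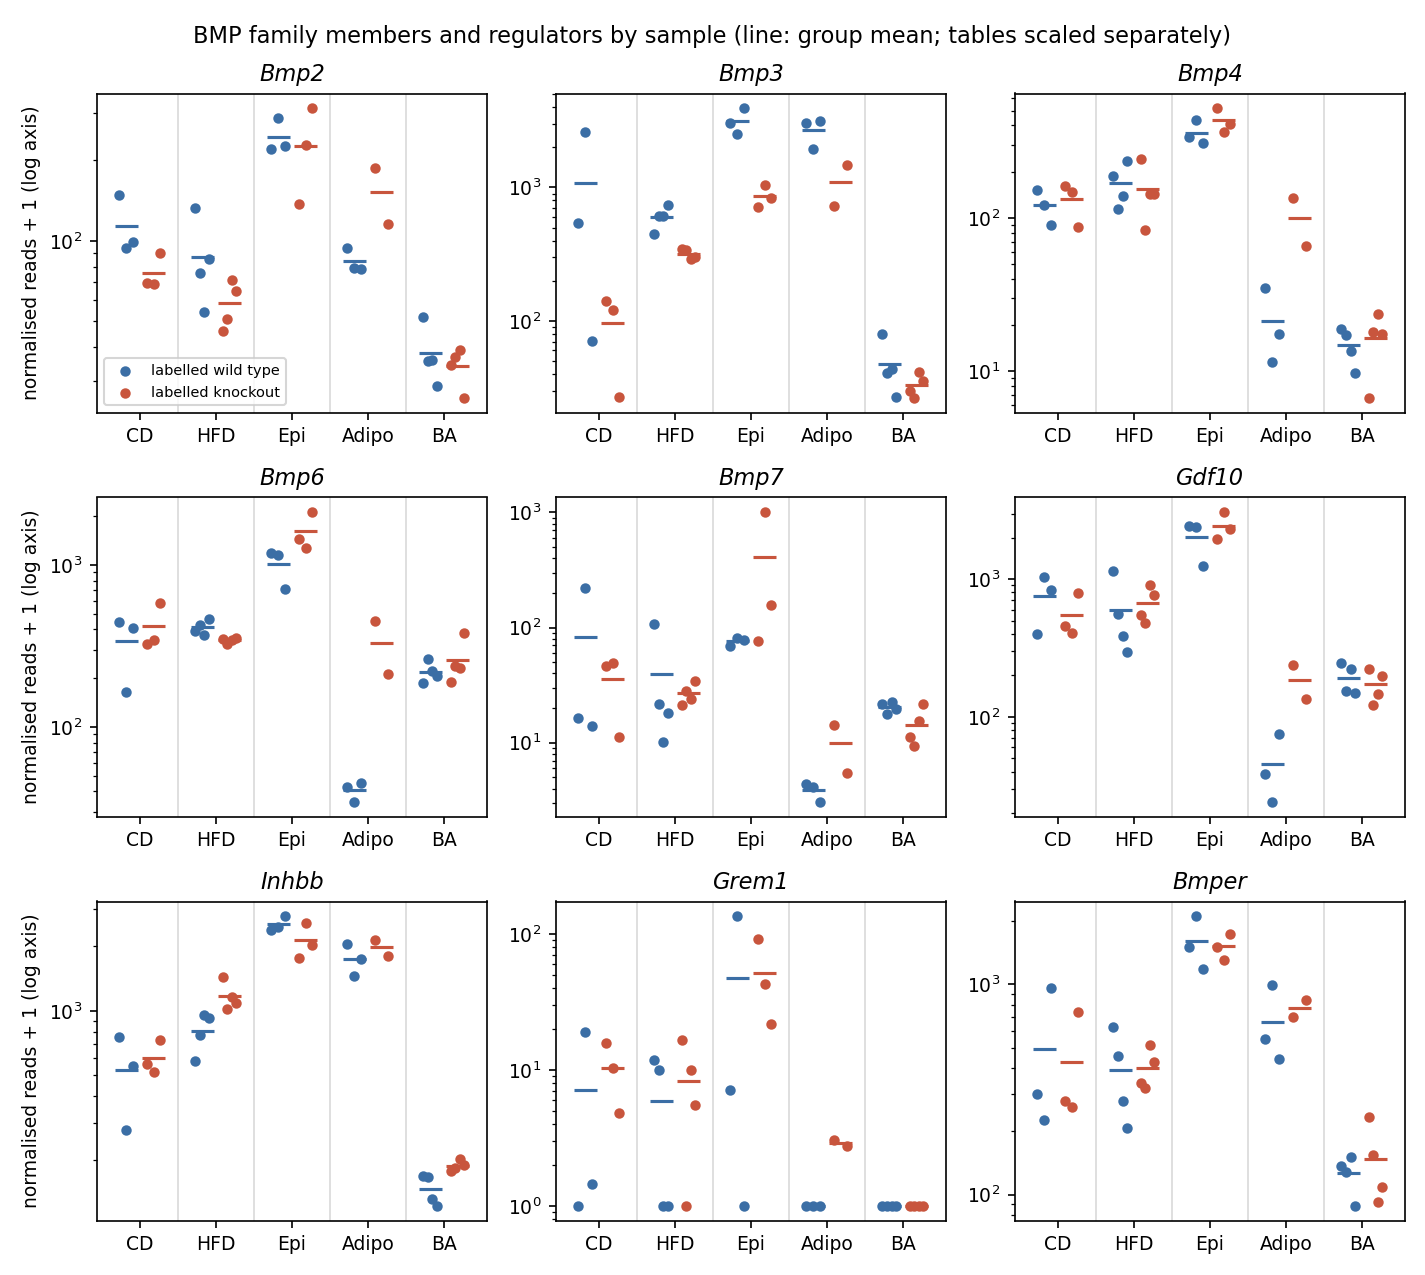
Normalised reads plus 1 (log axis) of each gene in every sample, by table, with wild type in blue, knockout in red and a line at the group mean; tables were scaled separately. Bmp3 knockouts of HFD, Epi and Adipo all lie under the wild type samples, and Bmp2, Bmp4, Bmp6 and Gdf10 knockouts of Adipo all lie over them.

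In the adipocyte table Bmp2, Bmp4, Bmp6 and Gdf10 were higher in both knockout samples than in every wild type sample. Bmp6 (ENSMUSG00000039004, chr13:38345107-38500302, plus strand), a ligand best known for inducing hepcidin in the liver, held 41.6, 33.4 and 44.0 normalised reads in wild type and 450 and 211 in knockout, a log2 fold change of 2.94 ± 0.41. Bmp4 (ENSMUSG00000021835, chr14:46383520-46390669, minus strand) held 33.7, 10.4 and 16.4 in wild type and 134 and 64.7 in knockout (2.31 ± 0.62). Gdf10 (ENSMUSG00000021943, chr14:33923587-33937983, plus strand), also called Bmp3b and the closest relative of Bmp3, held 37.1, 22.9 and 73.7 in wild type and 237 and 133 in knockout (2.13 ± 0.57). Bmp2 (ENSMUSG00000027358, chr2:133552159-133562885, plus strand) held 93.3, 78.2 and 77.8 in wild type and 187 and 114 in knockout (0.81 ± 0.33). For each of the 4 genes knockout 1 was higher than knockout 2. Of the 7 members tested in this table none passed, by limma at an adjusted p under 0.05, beside 0.54% of 14248 genes that passed as higher and 0.0912% as lower (0.632% in either direction). An unadjusted p under 0.05 was reached by 5 members and by 24.2% of all genes. All knockouts lay above all wild type samples for 20.7% of genes and below for 27.3%. DESeq2 on recovered reads called 4 members and edgeR 1.

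Markers of some other cell types were also higher in the knockout adipocyte samples. All 6 endothelial markers were higher in both knockouts, with a median log2 fold change of 2.90 and summed levels of 1643 to 3153 normalised reads in wild type and 12295 and 27750 in knockout. Of 7 mesothelial markers 7 were higher (median 2.29, summed 135 to 673 and 1055 and 1621) and of 8 progenitor and stromal markers 7 (median 1.26, summed 3780 to 9945 and 7580 and 14193). The progenitor and stromal sums overlapped between the groups. Mural and smooth muscle markers had a median of 1.07, with 4 of 6 genes higher and 2 lower. Their sums were lower in the knockouts (9681 and 11418, against 12647 to 23335). Macrophage markers had a median of 0.98, with 5 of 6 higher, and their sums overlapped (3304 and 8501, against 1337 to 16155). Both skeletal muscle markers tested had fold changes below 0. The 7 adipocyte markers had a median of 0.10. Knockout 1, higher in Bmp2, Bmp4, Bmp6 and Gdf10, was also the higher of both knockouts in endothelial markers (11.4 against 10.4). The part of these cells in the 4 genes was not tested.

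The sequences just before the starts of Bmp4 and Gdf10, which were both higher in the knockout adipocytes, are set beside that of Inhbb, which overlapped between the groups of Adipo. They are the 250 bases before the RefSeq start, which is the start of the chosen transcript in all 3, on GRCm38.p6, at chr14:46390670-46390919 (minus strand), chr14:33923337-33923586 (plus) and chr1:119422249-119422498 (minus), with motif matches in capitals.
Bmp4: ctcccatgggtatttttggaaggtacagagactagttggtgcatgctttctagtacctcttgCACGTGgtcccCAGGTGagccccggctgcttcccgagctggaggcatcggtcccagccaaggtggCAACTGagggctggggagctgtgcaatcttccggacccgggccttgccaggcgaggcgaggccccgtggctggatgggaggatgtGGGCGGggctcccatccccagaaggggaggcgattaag
Gdf10: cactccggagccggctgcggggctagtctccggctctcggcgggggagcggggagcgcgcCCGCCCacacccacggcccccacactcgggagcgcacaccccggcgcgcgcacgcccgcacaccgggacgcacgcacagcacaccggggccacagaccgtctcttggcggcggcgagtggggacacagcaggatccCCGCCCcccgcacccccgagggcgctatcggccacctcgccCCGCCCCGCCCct
Inhbb: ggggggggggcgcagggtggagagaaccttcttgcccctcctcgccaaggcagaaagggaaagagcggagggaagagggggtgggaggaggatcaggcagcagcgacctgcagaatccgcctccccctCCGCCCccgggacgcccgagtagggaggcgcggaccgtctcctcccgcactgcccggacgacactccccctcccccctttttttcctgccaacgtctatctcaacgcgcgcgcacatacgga
All 3 were rich in G and C (63.2%, 78.8% and 68.0%, against a median of 52.4% over 32851 promoters). The GC box GGGCGG, searched on both strands and with overlapping matches counted, occurred 1, 4 and 1 times, and 32.7% of all promoters hold it. The E-box CANNTG occurred 3 times in Bmp4 and in neither of the others, and 66.2% of promoters hold it. The windows held no match to the TATA box TATAAA (12.4% of promoters hold it), the CCAAT box (33.8%), the cAMP response element half-site TGACG (17.8%), the nuclear receptor half-site AGGTCA (14.0%) or the SMAD element GGCGCC (9.6%). Other members with a RefSeq start are not printed. For Bmp6, also higher in the knockout adipocytes, that start lies 609 bases from the start of the chosen transcript. Its window held 2 E-boxes and 1 GC box. That of Bmper, which overlapped between the groups, held 0 and 1.

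In whole fat the same 4 genes mostly overlapped between the groups. Bmp6 did not overlap in HFD and Epi, where its differences had opposite signs. In HFD it held 387, 427, 366 and 461 normalised reads in wild type and 348, 322, 342 and 352 in knockout. All knockouts lay under all wild type samples there (-0.26 ± 0.09). After TMM scaling this value was -0.175, and the median over all genes tested in HFD was -0.09 before that scaling. In Epi Bmp6 held 1184, 1150 and 711 in wild type and 1445, 1275 and 2118 in knockout, all above (0.67 ± 0.27). In CD the knockouts at 325, 341 and 581 overlapped the wild type samples at 445, 164 and 408 (0.37 ± 0.45), and without wild type 2 the sign turned (-0.09). In BA the groups, at 185 to 261 and 190 to 377, also overlapped (0.21 ± 0.20). Of the transcript of Bmp6, 6.2% overlaps exons of Txndc5 on the other strand, and of that of Bmp4 4.3% overlaps Gm15217. The sources used here do not say whether reads were counted by strand.

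Bmp2 and Bmp4 have related sequences and signal through the same receptors. Bmp2 in CD held 147, 92.7 and 98.3 normalised reads in wild type and 68.6, 67.7 and 88.7 in knockout, with all knockouts below (-0.56 ± 0.27). In HFD it overlapped, at 53.3 to 131 in wild type and 45.0 to 70.2 in knockout (-0.53 ± 0.26), as in Epi (-0.18 ± 0.33) and BA (-0.14 ± 0.22). Bmp4 overlapped in all 4 whole fat tables, with log2 fold changes from -0.18 to 0.26, and ranged from 82.7 to 241 in HFD, from 307 to 518 in Epi and from 5.69 to 22.6 in BA. Gdf10 overlapped in all 4 as well, with fold changes from -0.41 to 0.34. It varied widely within groups, from 296 to 1137 among the wild type samples of HFD and from 1236 to 2430 among those of Epi.

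Bmp7 (ENSMUSG00000008999, chr2:172868012-172940321, minus strand) was low in fat and high in single libraries. In Epi it held 67.5, 80.3 and 77.5 normalised reads in wild type and 75.6, 1008 and 155 in knockout. The fold change of 1.60 ± 0.89 fell to 0.53 without knockout 2 and to 0.01 without knockouts 2 and 3, the samples that carried epididymis markers. Knockout 2 also had the highest epithelial markers of Epi (10.4). In CD the highest values were 218 in wild type 2 and 45.4 and 48.0 in knockouts 1 and 2, the samples that carried epithelial markers, against 10.1 to 15.4 in the other 3. In HFD it was 107 in wild type 1 and 9.12 to 33.2 in the other 7, and wild type 1 was also highest in epithelial markers (6.53, against 2.77 to 4.13). The part of epithelial cells in these levels was not tested. In Adipo Bmp7 held 2.05 to 3.37 in wild type and 13.3 and 4.43 in knockout, under the mean of 10 needed for a test. In BA it held 16.9 to 21.7 in wild type and 8.29 to 20.6 in knockout, which overlapped (-0.58 ± 0.28).

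Inhbb (ENSMUSG00000037035, chr1:119415465-119422248, minus strand) forms activin B, which acts through activin receptors and SMAD2 and SMAD3. In HFD it held 582, 768, 957 and 921 normalised reads in wild type and 1435, 1016, 1161 and 1084 in knockout, so that all knockouts lay above (0.55 ± 0.17). In BA it held 168, 167, 131 and 121 in wild type and 177, 183, 201 and 189 in knockout, again all above (0.37 ± 0.14). In Epi the knockouts at 1774, 2582 and 2041 overlapped the wild type samples at 2398, 2462 and 2776 (-0.27 ± 0.16). Adipo overlapped too, with 2060, 1461 and 1738 in wild type and 2144 and 1812 in knockout (0.18 ± 0.18), and so did CD (0.30 ± 0.38, and -0.11 without wild type 2).

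Of the secreted regulators, Bmper was expressed in all 5 tables and Grem1 was near the floor. Bmper (ENSMUSG00000031963, chr9:23223076-23485200, plus strand), which binds BMPs outside the cell and can inhibit or promote their action, overlapped between the groups in all 5 tables, with fold changes from -0.09 to 0.30. Its SE reached 0.66 in CD, where wild type 3 and knockout 3 held 956 and 737 normalised reads and the other 4 samples 225 to 301. Grem1 (ENSMUSG00000074934, chr2:113746164-113758646, minus strand), a gremlin that binds BMP2, BMP4 and BMP7, was at 0 to 17.9 normalised reads in CD, 0 to 15.6 in HFD, 0 in the wild type and 2.04 and 1.77 in the knockout samples of Adipo, and 0 throughout BA. In Epi it held 6.14, 134 and 0 in wild type and 90.1, 42.0 and 20.6 in knockout. The means there, 46.8 and 50.9, hardly differed, and the log2 fold change of 2.15 ± 1.74 rested on the wild type sample at 0, without which it was 0.50.

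Counts of members past the threshold are given for completeness, and nothing is read from them. By limma, 1 of 8 members tested passed in HFD (Bmp3), where 2.44% of 14069 genes passed as lower and 1.01% as higher (3.45% in either direction). There 3 members and 20.8% of genes had an unadjusted p under 0.05. No member passed in CD (0 of 8, with 0 at an unadjusted p under 0.05), in Epi (0 of 9, 2 unadjusted) or in BA (0 of 8, 1 unadjusted), where 0%, 0% and 0.0322% of genes passed in either direction. An unadjusted p under 0.05 was reached by 9.64% of genes in CD, 9.19% in Epi and 9.03% in BA. DESeq2 on recovered reads called 1, 2, 1 and 0 members in CD, HFD, Epi and BA, and edgeR 0, 1, 0 and 0. Groups did not overlap for 1 member in CD, 3 in HFD, 2 in Epi and 1 in BA. All knockouts lay above all wild type samples for 12.4%, 4.04%, 7.32% and 3.27% of genes in these tables, and below for 4.57%, 9.99%, 9.13% and 2.21%.

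**Figure D3:**
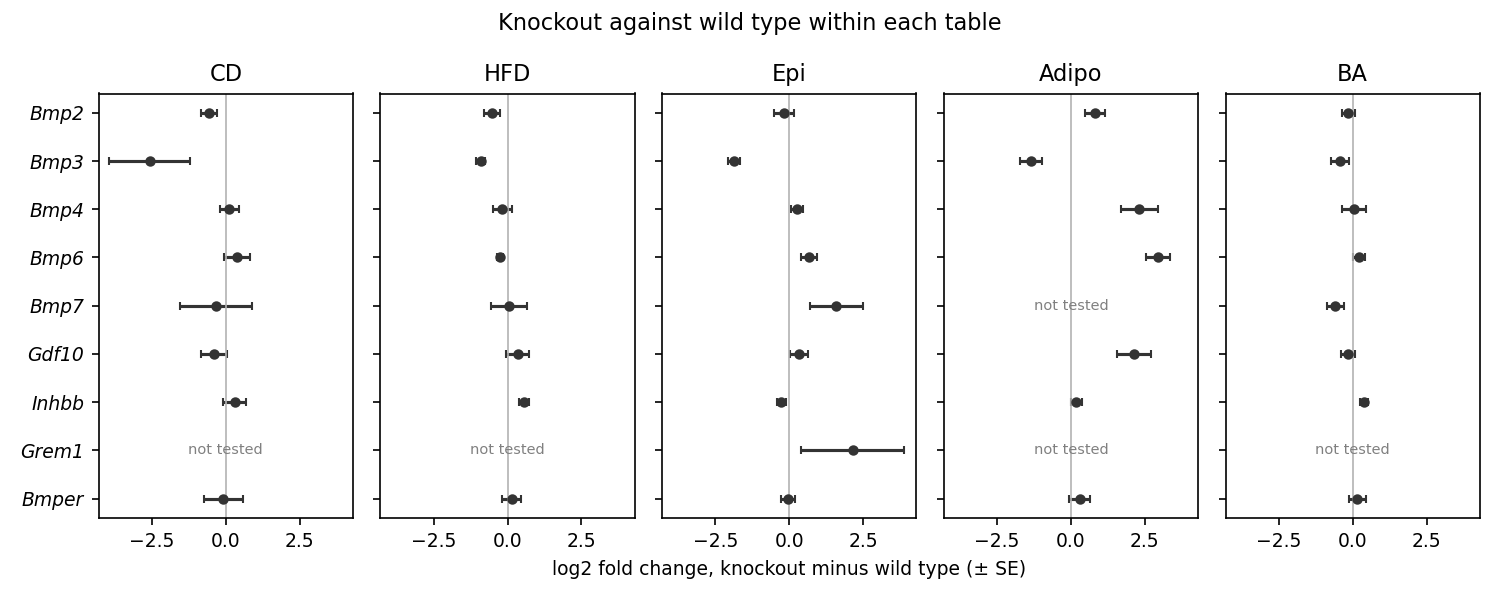
Log2 fold change of each gene, knockout minus wild type, with its SE as a bar, in the 5 tables. Bmp3 lies left of 0 in every table and Bmp2, Bmp4, Bmp6 and Gdf10 lie right of 0 in Adipo; genes under a mean of 10 are marked as not tested.

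Among the other pathway genes, limma called most in HFD (9, against 1 in Adipo), while DESeq2 called 15 in HFD and 21 in Adipo. In HFD 3 rose and 6 fell of 67 tested, where 1.01% of all 14069 genes passed as higher and 2.44% as lower. Noggin (Nog), an antagonist of BMP2, BMP4 and BMP7, fell from 92.8 ± 20.6 to 34.1 ± 12.8 normalised reads (SD, n = 4 each). Its wild type samples held 80.7, 119, 72.4 and 99.6 and its knockouts 22.2, 52.2, 32.2 and 29.6, with all knockouts below (log2 fold change -1.46 ± 0.26, limma adjusted p = 0.0203). Fstl3, a follistatin-like protein that binds activins, fell from 312 ± 103 to 112 ± 12.2 (-1.41 ± 0.21, adjusted p = 0.01). The ligand Bmp5 rose at a low level, from 9.08 ± 1.58 to 23.9 ± 4.89 (1.30 ± 0.26, adjusted p = 0.0280). Of the transcripts of Fstl3 and Bmp5, 59.2% and 49.1% overlap exons of genes on the other strand (Prss57 and Gm26903), so their reads may not be theirs alone. The call for Fstl3 was kept under all 23 alternatives. The call for Nog was lost without knockout 1, 3 or 4 or wild type 4 or with library number 3 alone (0.051 to 0.0726), and that for Bmp5 without knockout 1, 3 or 4 or wild type 3 or 4 or with library number 1, 2 or 4 alone (0.0554 to 0.131).

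By role in HFD, 1 of 10 other ligands rose and 0 of 18 receptors and co-receptors passed. Of 12 SMADs and their regulators 1 rose (Smurf1, a ubiquitin ligase). Among 15 antagonists Nog and Fstl3 fell and 1 other rose. Of 5 fat commitment regulators 0 passed. Of 11 BMP target genes tested 4 fell and none rose, where 2.44% of all genes passed as lower and 1.01% as higher. The 4 were Hey1 (216 ± 54.8 to 95.4 ± 7.75, -1.14 ± 0.17, limma adjusted p = 0.0087), Id1, Atoh8 and Msx1. Id1, an inhibitor of differentiation factors, held 975, 729, 1068 and 1457 normalised reads in wild type and 541, 350, 513 and 522 in knockout, without overlap (-1.11 ± 0.21, adjusted p = 0.0252). This call was lost without any single knockout, wild type 3, or wild type 1 and knockout 1 together (0.0517 to 0.0741). The fold change was below 0 for 10 of the 11, with a median of -0.57, against -0.09 over all 14069 genes. Id3 held 1746 to 3428 in wild type and 1572 to 1706 in knockout (-0.60 ± 0.18, adjusted p = 0.107), Id2 -0.13 ± 0.25 and Smad6 -0.46 ± 0.27. Endothelial cells also express Id1 and Hey1. The endothelial markers lay between 10.4 and 10.6 in wild type and between 10.2 and 10.6 in knockout. Of these 6 markers 5 had fold changes below 0 (median -0.11), and the part of these cells was not tested. The count of 4 was 1 without any single knockout or without wild type 3, 2 without wild type 4, 3 without wild type 2 and 5 without wild type 1. The call for Hey1 was kept under all 23 alternatives.

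In Adipo most BMP target genes had higher means in the knockouts. Of 11 tested 1 rose, where 0.54% of all 14248 genes passed as higher, and 10 had fold changes above 0. The median of the 11 was 1.74, against -0.04 over all genes. Id3 rose from 3689 ± 400 (n = 3) to 14420 ± 1166 normalised reads (n = 2), with 13595 and 15244 in the knockouts (1.97 ± 0.16, limma adjusted p = 0.0138). This call was lost without knockout 1 (adjusted p = 0.111), wild type 1 (0.118) or wild type 2 (0.0653), or without moderation (0.0633). Id1 held 70.8, 38.6 and 48.1 in wild type and 424 and 248 in knockout (2.65 ± 0.40, adjusted p = 0.0604), and Id2 and Smad6 had fold changes of 1.70 ± 0.94 and -0.19 ± 0.17. Id3 was at 153 TPM in wild type adipocytes and 152 in wild type whole fat of Epi, while Id1 was at 2.39 and 40.2. The higher endothelial markers of both knockouts stand beside these values as well, and their part was not tested. An unadjusted p under 0.05 was reached by 27 of the 65 pathway genes tested and by 24.2% of all genes. Of these 65, edgeR called 2 and DESeq2 21. By limma 1 of them passed, beside 0.632% of all genes. The count was 0 without knockout 1, wild type 1 or wild type 2 and 11 without wild type 3.

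**Figure D4:**
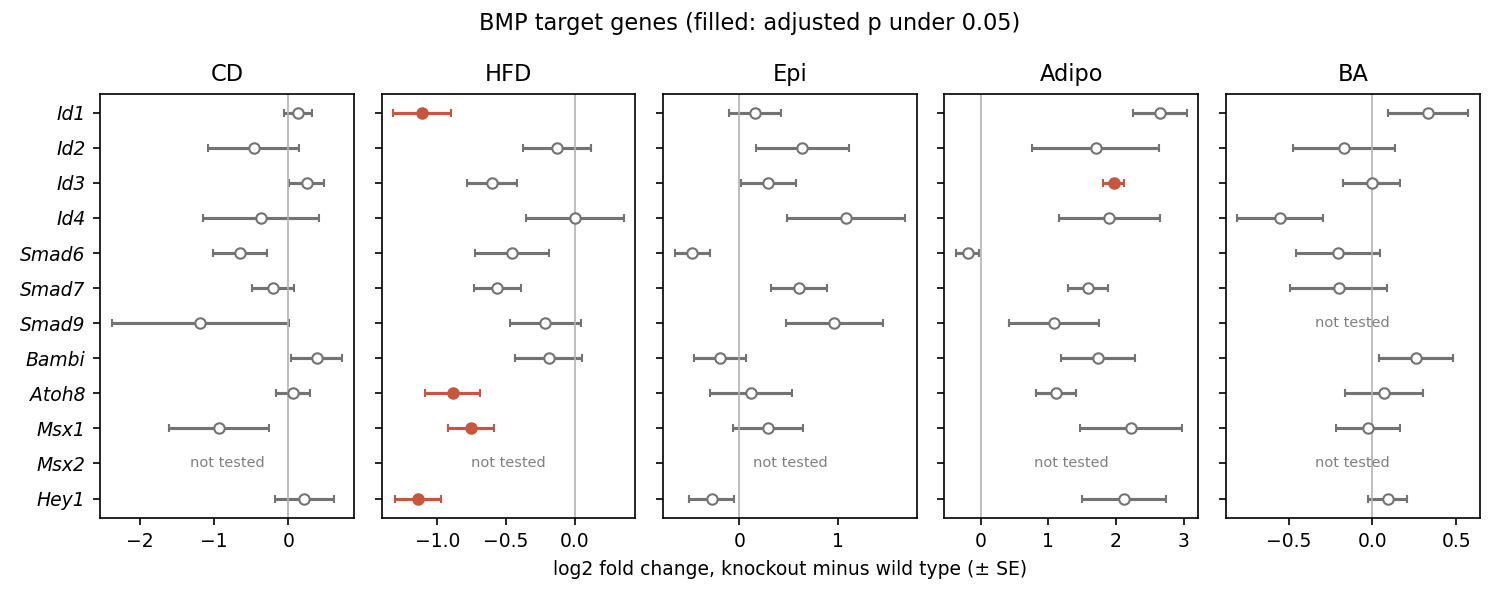
Log2 fold change of the 12 BMP target genes, knockout minus wild type, with SE, in the 5 tables (the horizontal scales differ); filled points passed at an adjusted p under 0.05 by limma. In HFD 10 of 11 lie left of 0 and 4 are filled, and in Adipo 10 of 11 lie right of 0 and 1 is filled.

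In the other 3 tables no pathway gene passed by limma. These counts do not weigh alike. Of genes simulated with a log2 change of 2, limma recovered 15.5% in CD, 57.1% in Epi and 95.9% in BA. For a change of 1 it recovered 0%, 16.2% and 60.6%. A count of 0 in CD or Epi is therefore not read as a lack of change. In CD 0 of 69 passed (6 at an unadjusted p under 0.05, 3 by DESeq2, 0 by edgeR), in Epi 0 of 74 (9, 4 and 0) and in BA 0 of 59 (9, 4 and 0). Of all genes 0%, 0% and 0.0322% passed there by limma, and 9.64%, 9.19% and 9.03% had an unadjusted p under 0.05. The values of smallest p were as follows. In Epi the antagonist Chrdl1 had 2500 ± 533 normalised reads (wild type) against 4851 ± 843 (knockout) (0.96 ± 0.20, adjusted p = 0.341). Fstl1 was at 18506 ± 648 and 11289 ± 2565 (-0.74 ± 0.18, adjusted p = 0.378). In CD the fold changes were -0.92 ± 0.27 for Fstl3, -1.18 ± 0.39 for Lefty1 and -0.58 ± 0.21 for Tgfb3 (adjusted p from 0.504 to 0.514). In BA, Hfe2, a BMP co-receptor of muscle also called hemojuvelin, was at 7.30 ± 6.10 and 64.4 ± 43.9 (3.08 ± 0.63, adjusted p = 0.119), Ccn5, a secreted factor known to act on fat commitment, at 60.3 ± 39.1 and 261 ± 205 (2.02 ± 0.49, adjusted p = 0.187), and the receptor gene Tgfbr2 had a fold change of -0.50 ± 0.14 (0.248). The skeletal muscle markers of BA ranged from 1.96 to 8.04 in knockout and from 2.23 to 8.09 in wild type. The target genes Id1, Id2, Id3 and Smad6 had fold changes in CD of 0.13 ± 0.19, -0.47 ± 0.61, 0.25 ± 0.23 and -0.65 ± 0.36, in Epi of 0.16 ± 0.26, 0.64 ± 0.47, 0.29 ± 0.28 and -0.48 ± 0.18, and in BA of 0.33 ± 0.24, -0.17 ± 0.30, -0.0049 ± 0.17 and -0.21 ± 0.25.

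Within groups, the 7 members with a mean of 10 or more in all 5 tables were compared by the deviation of each of the 33 samples from the mean of its own table and genotype, on the log2 scale. The values are descriptions over samples that share tables, scaling and libraries that stood apart. Each value is followed by that over the 21 samples of HFD, Adipo and BA, which leaves out the libraries with high epididymis markers but keeps the others that stood apart. Bmp6 went with the endothelial markers (Pearson's r = 0.84, then 0.79). Gdf10 went with the progenitor and stromal markers (0.46, then 0.76) and with the macrophage markers (0.40, then 0.71). The values of Bmp3 depended on CD and Epi. They were -0.70 and -0.29 with Bmper, -0.60 and -0.21 with Bmp6, and turned in sign with Inhbb (-0.31 and 0.49) and with the adipocyte markers (-0.64 and 0.32). Bmp6 with Inhbb gave 0.53 and 0.29. Over the 21 samples other pairs were the strongest, namely Bmp4 with Inhbb (0.27, then 0.61), Bmp2 with Gdf10 (0.35, then 0.53) and Inhbb with Bmper (0.01, then -0.51). Among 9813 other genes with a mean of 50 or more in every table, Bmp6 was most like Unc45b (0.88, then 0.83), She (0.88 and 0.83) and Dll4 (0.88 and 0.84), of which Dll4 is a Notch ligand of endothelial cells. Bmp3 was most like Shmt2 (0.86 and 0.61), Nkd1 (0.83 and 0.88) and Fam234b (0.82 and 0.42). Gdf10 was most like Olfml2b (0.82 and 0.86), C7 (0.79 and 0.81) and Penk (0.79 and 0.75). For Inhbb these were Grb10 (0.83 and 0.77), Cldn15 (0.83 and 0.77) and Mpp4 (0.81 and 0.67). For Bmper they were Mocs1 (0.81 and 0.69), Limk1 (0.78 and 0.75) and Itpka (0.77 and 0.48). Bmp4 was most like Casp2 (0.84 and 0.93), G2e3 (0.79 and 0.79) and Zfp282 (0.71 and 0.81). For Bmp2 the highest values were lower, at 0.62 and 0.51 for Arrdc3, 0.61 and 0.67 for Tent5a, and 0.58 and 0.50 for Cyth3.

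**Figure D5:**
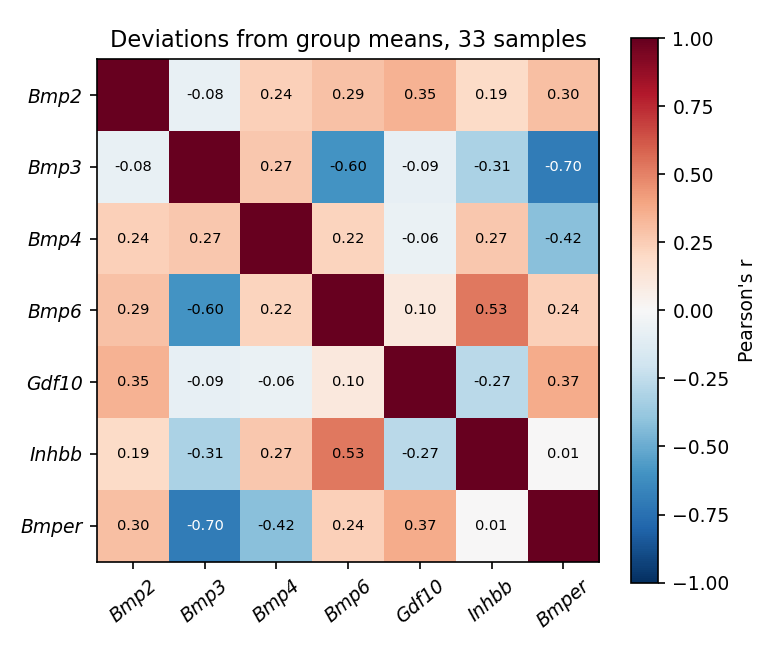
Pearson's r of the within-group deviations of 7 members over 33 samples, printed in each cell and coloured from blue (-1) to red (1). Over these 33 samples the strongest values are -0.70 for Bmp3 with Bmper, -0.60 for Bmp3 with Bmp6 and 0.53 for Bmp6 with Inhbb; without CD and Epi these are -0.29, -0.21 and 0.29, and Bmp4 with Inhbb is strongest at 0.61.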

How the data were processed

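Messenger RNA libraries of mouse fat and adipocytes were grouped by tissue, age, treatment and the genotype in their titles. The deposited unit is a signal for each Ensembl transcript: its reads over the size factor of the library. Tools listed without settings, per the submitters' processing notes, were DESeq 1.8.3, HTSeq 0.5.3, SAMtools, STAR 2.4.0k and bcl2fastq 2.17, with the build GRCm38.p4. Of 100 samples 99 were used; 1 column matched no sample and was left out, and knockout 3 of the adipocytes was not analysed here. Of 97669 transcripts 698 had no gene in GENCODE M21. For each gene the transcript of its own type with the highest mean was taken, and libraries of a replicate were averaged. Each table was fitted alone with limma 3.58.1 (R 4.3.3, trend and robust) on log2(value + 1) for genes with a mean of 10 or more. Adding 1 can understate fold changes of low genes. A sample at 0 can also overstate them, as for Grem1 in Epi. P-values were adjusted by Benjamini-Hochberg over all genes (threshold 0.05), and the fits were tested on simulated data. Of genes simulated with a log2 change of 1, limma recovered 0%, 59.4%, 16.2%, 10.2% and 60.6% in CD, HFD, Epi, Adipo and BA. With a change of 2 these were 15.5%, 82.7%, 57.1%, 68.8% and 95.9%. Whole reads were recovered in 96 libraries (100% of values within 0.05 of a read) and used for edgeR 4.0.16 and DESeq2 1.42.0 as alternatives, next to TMM scaling, other filters, pseudocounts and transcripts, a replicate block, single library numbers and leaving out each replicate.

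The 9 members, the pathway lists and the marker lists were chosen with earlier results of these data known. Named by rule were the 9 members, per table up to 6 pathway genes that passed (or the 3 of smallest p), Id1, Id2, Id3 and Smad6, and the 3 genes most like each member. Atoh8, Msx1 and Smurf1 were named beyond the rule after their values were seen, and 1 gene that the rule names is not reported here. Leaving out the libraries that stood apart together, the correlations without CD and Epi, and the counts of BMP target genes were chosen after seeing the data. Cell type levels are means of log2(value + 1) over each list. Replicate numbers were not taken to pair samples (correlations of deviations from -0.58 to 0.58). The 250-base promoter sequences are from RefSeq, which gave 6 of the 9 members; motif matches are descriptions. Over all genes tested in CD the log2 fold changes had a median of 0.11, and 0 after TMM scaling. In HFD the median was -0.09, and 0 after TMM scaling. Only Bmp6 and the target gene median of HFD are set beside these shifts, and the other values of CD and HFD are printed without regard to them. In CD, Bmp6, Inhbb and Bmp4 had fold changes above 0 (0.37, 0.30 and 0.11). Their mean TPM was lower in the knockouts (13.8 against 14.4, 17.05 against 19.05 and 7.78 against 9.26).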

Additional observations from a re-analysis of the deposited data

Results flagged for a closer look

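In the wild type samples of HFD, replicate 1 held 106.61 normalised reads of Bmp7 and stood away from the other 3, with a gap of 0.881 of the group's range, above Dixon's critical value for 4 samples. It was also highest in epithelial markers (6.53). Such a rule picks out about 1 in 20 groups by chance. It was applied only to the groups of 4 samples in HFD and BA. The smaller groups of CD, Epi and Adipo could not be flagged by it.

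For Bmp2 every knockout lay below every wild type sample in CD (log2 fold change -0.5618) and above in Adipo (0.8141). For Bmp6 every knockout lay below in HFD (-0.2615) and above in Epi (0.6697), and the same HFD value stands against Adipo (-0.2615 and 2.9366). After TMM scaling the HFD value of Bmp6 was -0.175. The tables were scaled separately and these differences were not tested.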

How the results depend on the processing

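Counts of genes past the threshold depended on the tool and on single samples. DESeq2 on recovered reads called 1063, 1514, 526, 1805 and 282 genes in CD, HFD, Epi, Adipo and BA, against 0, 485, 0, 90 and 4 by limma. Of pathway genes it called 3, 15, 4, 21 and 4, against 0, 9, 0, 1 and 0, of members 1, 2, 1 and 4 in the first 4 tables, and of BMP target genes 6 in Adipo. Leaving out 1 sample at a time gave 0 to 648 genes (648 without knockout 3), 126 to 1176, 0 to 20, 3 to 719 and 0 to 9 in the 5 tables. For pathway genes it gave 0 to 1, 2 to 15, 0 and 0 to 11 in CD, HFD, Epi and Adipo, for members 0 to 1 in HFD and 0 to 2 in Adipo, and for BMP target genes 1 to 5 in HFD and 0 to 4 in Adipo. A lone sample left in an arm is assumed to vary like the other group.

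With no moderation the genes called were 1 in CD, 0 in Adipo and 2 in BA, and in Adipo 0 pathway and 0 BMP target genes. TMM scaling gave 143 genes, 2 pathway genes, 1 member and 2 BMP target genes in Adipo, and 1 gene in BA. Without the filter these were 392, 8, 1 and 3 in Adipo, 2 genes in BA, and 5 pathway and 2 BMP target genes in HFD. edgeR gave 2 pathway genes, 1 member and 2 BMP target genes in Adipo. Single library numbers gave 1, 0, 9 and 8 genes in BA, and numbers 1, 3 and 4 gave 2 BMP target genes each in HFD, as did leaving out wild type 1 and knockout 1 together. With the replicate number as a block, 272 genes passed in HFD, and in Adipo 1414 genes, 19 pathway genes, 3 members and 6 BMP target genes. The block also ended the HFD call of Bmp5 (adjusted p = 0.084). The numbers share no stated source.

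Among the members, the sign turned under at least 1 alternative for 6 of 8 in CD, 3 of 8 in HFD, 2 of 9 in Epi, 0 of 7 in Adipo and 3 of 8 in BA, most often for Bmp7 in HFD (9 of 22 alternatives), Bmp4 in BA (6 of 21), and Bmp4 and Bmper in CD (5 of 22 each). Among the named target genes, those that turned in sign, none of which passed the threshold, were Id1 in CD without wild type 2 (-0.0389) and without the 3 samples with epithelial markers (-0.1894), Id2 in CD likewise (0.2381 and 0.6597), Id2 in HFD without wild type 1 (0.1068), Id1 in Epi without knockout 2 (-0.0331), Id2 in BA without knockout 3 (0.0579) or wild type 4 (0.0073), Id3 in BA without knockout 3 (0.1565), wild type 2 (0.0529) or wild type 3 (0.0305) and with library 1 (0.0281) or 4 (0.0078) alone, and Smad6 in BA without wild type 4 (0.0034). With 1 sample left out at a time these lay between -0.0389 and 0.266 (Id1, CD), -0.8505 and 0.2381 (Id2, CD), -0.2858 and 0.1068 (Id2, HFD), -0.0331 and 0.4467 (Id1, Epi), -0.3773 and 0.0579 (Id2, BA), -0.0936 and 0.1565 (Id3, BA), and -0.402 and 0.0034 (Smad6, BA). The cause was not tested. Bmp3 kept its sign under every alternative run in the 5 tables.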
